A study of Mus musculus with 13 samples.

Results

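The SR splicing factors are described here through 10 genes, Srsf1, Srsf2, Srsf3, Srsf4, Srsf5, Srsf6, Srsf7, Srsf9, Srsf10 and Srsf11, which were taken by symbol from the 22406 gene symbols of each table. All 10 had a mean level of at least 2 TPM (a level scaled by coding length and library) in both tables, as had 10432 genes in the mouse embryonic fibroblasts (MEFs) and 10117 in NIH3T3 cells. Ribosome footprints were sequenced in 13 libraries, with 1 library for each condition. PERK WT MEFs and MEFs knocked out for PERK (PERK -/-), the ER stress kinase encoded by Eif2ak3 that phosphorylates eIF2α, were left untreated (control) or given thapsigargin (Tg), which empties the calcium store of the ER, at 1 µM for 1, 2, 5 or 8 h. NIH3T3 cells, an established mouse fibroblast line, were untreated or given 200 nM Tg for 2 or 7 h. Whether each MEF line came from 1 or several embryos is not given in the sources used here. Since no condition had a second library, no difference could be set against replicate spread and no test between conditions was made.

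SR proteins carry RNA recognition motifs at the N terminus and a domain rich in alternating arginine and serine (the RS domain). They bind exonic sequences and help the spliceosome to choose splice sites. Kinases of the SRPK and CLK families phosphorylate the RS domain, and the import receptor transportin 3 carries the phosphorylated proteins into the nucleus. Many SR genes limit their own levels by splicing in a poison exon, whose early stop codon sends the mRNA to nonsense-mediated decay (NMD).

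The coding sequences differ in how much of the RS repeat they hold. Counted over the longest coding sequence of each gene (GENCODE M21 annotation of GRCm38, the assembly also called mm10), neighbouring Arg and Ser codons were most frequent in Srsf2, with 23.5 pairs per 100 codons. They were least frequent in Srsf9 (4.05) and Srsf11 (8.02), against a median of 0.779 over 10248 expressed MEF genes. The 40 codons richest in such pairs are printed for the 4 genes on which the results below turn, on the coding strand and 5′ to 3′, with the codons of each pair in capitals. Srsf2 has 28 pairs in exon 2 (chr11:116852199-116852318, minus strand). Srsf9 has 8 across exons 3 and 4 (chr5:115332275-115332680, plus strand, intron left out). Srsf10 has 14 across exons 4 and 5 (chr4:135863117-135863556, plus strand, intron left out), and Srsf11 has 19 across exons 8 and 9 (chr3:158016393-158017868, minus strand, intron left out).
Srsf2: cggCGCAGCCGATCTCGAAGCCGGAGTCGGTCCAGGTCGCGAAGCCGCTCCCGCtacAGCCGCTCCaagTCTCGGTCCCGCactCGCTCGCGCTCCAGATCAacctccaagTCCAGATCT
Srsf9: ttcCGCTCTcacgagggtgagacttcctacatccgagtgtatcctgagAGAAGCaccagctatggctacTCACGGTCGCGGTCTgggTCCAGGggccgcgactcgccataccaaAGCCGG
Srsf10: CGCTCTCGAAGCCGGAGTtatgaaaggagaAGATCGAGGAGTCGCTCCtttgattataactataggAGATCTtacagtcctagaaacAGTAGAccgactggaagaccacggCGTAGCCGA
Srsf11: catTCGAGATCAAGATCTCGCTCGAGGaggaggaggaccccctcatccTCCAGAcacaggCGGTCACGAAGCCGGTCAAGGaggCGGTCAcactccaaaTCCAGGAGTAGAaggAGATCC
The repeat of Srsf2 is nearly unbroken and rich in G and C, and its coding sequence has 68.2% GC, whereas that of Srsf10 has 44.6%. The median over the 10 genes was 52.8% GC, against 52.7% over the expressed MEF genes. At least 1 transcript that the annotation marks for NMD was listed for 9 of the 10 genes (90%), all but Srsf10, and for 30.1% of the expressed MEF genes.

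The libraries held 2525029 to 14799515 expected counts, and each SR gene had 82 to 4934 of them in a library. The smallest libraries were PERK WT at 2 h (2525029) and NIH3T3 at 2 h (2569965). Footprint levels are shares of a library, so fewer cells, less RNA per cell and less translation overall cannot be told apart from them. Ddit3, which encodes the stress factor CHOP, had 13.8 TPM in the PERK WT control and 272 to 580 TPM in the Tg libraries, whereas the PERK -/- libraries had 6.91 to 14.2 TPM. Eif2ak3 itself had 6.03 to 15.7 TPM in PERK WT and 5.21 to 17.2 TPM in PERK -/- libraries, with overlapping ranges. In TPM it was higher in PERK -/- than in PERK WT MEFs untreated (11.2 against 6.03). The same held at 5 h (14.9 against 14.0) and 8 h (17.2 against 15.7), while it was lower at 1 and 2 h (7.32 against 8.49 and 5.21 against 6.20). For this gene the 2 scales differ in direction in the controls and at 5 and 8 h, and have the same direction at 1 and 2 h. In CPM (counts scaled by the library total alone) it had 21.3 in the PERK WT control and 10.99 in the PERK -/- control, and was lower in PERK -/- than in PERK WT libraries at all 4 Tg times (8.99 against 14.4, 7.64 against 19.01, 13.2 against 33.3 and 19.1 against 32.7 at 1, 2, 5 and 8 h). A gene total cannot show whether these footprints lie outside the deleted part. The fibroblast markers summed to 3455 TPM or more in every library and the markers of other cell types to at most 3.64 TPM. Of the fibroblast markers, Col3a1 (at most 1.67 TPM) and Pdgfrb (at most 5.36 TPM) were low in NIH3T3 cells, and Pdgfra (at most 2.79 TPM) was low in PERK WT MEFs.

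Before treatment the SR genes differed widely in level in the PERK WT control. Srsf3, the shortest member, was the highest at 737 TPM, followed by Srsf1 (418 TPM) and Srsf7 (404 TPM). Srsf10 (285 TPM) and Srsf5 (281 TPM), and likewise Srsf2 (242 TPM) and Srsf6 (237 TPM), were closer to each other than their counting error. Srsf11 (182 TPM), Srsf9 (167 TPM) and Srsf4 (49.7 TPM) were the lowest. Srsf3 was the highest and Srsf4 the lowest of the 10 in each of the 13 libraries. For Srsf3, 74.0% of the 22-nt words of its clipped coding sequence also occur in that of Gm12355, so its reads may not all be unique. The other 9 genes shared at most 0.412% of such words with another gene, and no coding exon of the 10 overlapped one of another gene.

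**Figure D1:**
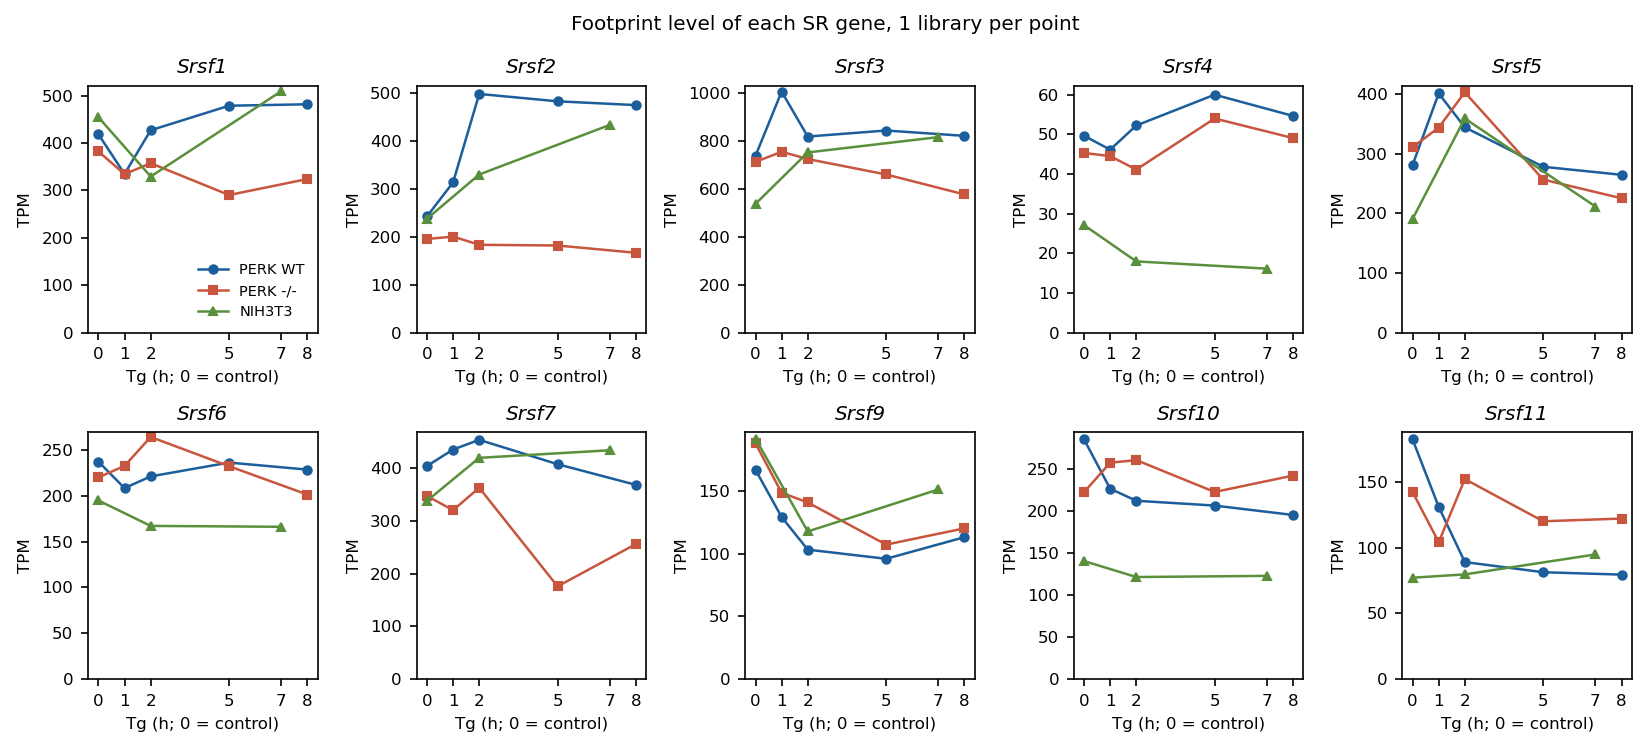
TPM of each SR gene (y axis, starting at 0, with its own scale in each panel) against hours of Tg (x axis, 0 is the untreated control), with 1 library per point for PERK WT (blue circles), PERK -/- (red squares) and NIH3T3 (green triangles). Srsf2 went from 242 to 475 TPM in PERK WT MEFs by 8 h and from 195 to 166 TPM in PERK -/- MEFs, while Srsf9 was below its control in every Tg library.

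The question of the MEF comparison was which footprint changes need PERK. Only Srsf2 and Srsf11 reached a 2-fold change in any of the 10 comparisons of a Tg library with the control of its line. In PERK WT MEFs, 0 of 10 SR genes rose and 0 fell at least 2-fold at 1 h, when 4.33% of all tested genes rose and 2.29% fell. At 2 h, 1 rose (Srsf2) and 1 fell (Srsf11), against 5.66% and 4.01% of all genes. At 5 h, 0 rose and 1 fell (Srsf11), against 5.86% and 3.55%, and at 8 h again 0 rose and 1 fell (Srsf11), against 6.45% and 3.87%. A count of 0 or 1 in 10 genes is close to what these background shares give. The median log2 change of TPM over the SR genes was -0.15, 0.05, 0.00 and -0.07 at 1, 2, 5 and 8 h, and that of all genes was 0.00, 0.00, 0.00 and 0.01. The family therefore showed no common direction in PERK WT MEFs, and its members lay on both sides of 0. At 2 h they ranged from -1.03 to 1.04, and the quartiles of all genes were -0.28 and 0.38. At 8 h they ranged from -1.20 to 0.97, and the quartiles of all genes were -0.27 and 0.43. Whether the members were more spread than other genes was not tested.

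**Figure D2:**
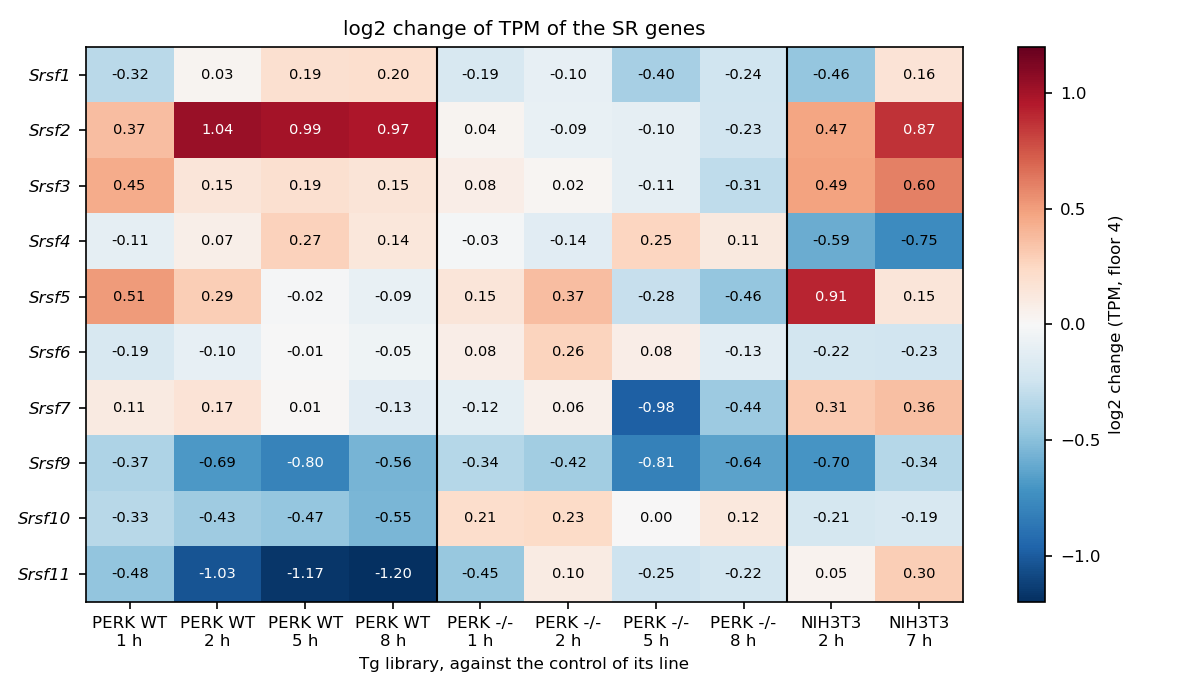
Log2 change of TPM of the 10 SR genes (rows) in each Tg library against the control of its line (columns), with values printed in the cells and red for higher, blue for lower. Srsf2 is at 0.97 to 1.04 in PERK WT MEFs from 2 h on, Srsf11 at -1.03 to -1.20 in the same libraries, and Srsf9 is below 0 in all 10 columns.

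Srsf2 (SC35) binds exonic enhancers and is also known to act in transcription elongation. In PERK WT MEFs it had 242 TPM in the control and 313, 498, 483 and 475 TPM at 1, 2, 5 and 8 h. The PERK -/- control had 195 TPM, and the Tg libraries had 200, 183, 182 and 166 TPM. NIH3T3 cells had 238 TPM untreated, then 330 TPM at 2 h and 433 TPM at 7 h. All Tg libraries of PERK WT MEFs and NIH3T3 cells were thus above their controls. The PERK WT libraries at 1 to 8 h were above every PERK -/- library, but so was the untreated PERK WT library. Between the controls, PERK -/- was already lower by -0.31 log2 TPM. How many other genes were separated between the genotypes in this way was not counted. The rise in PERK WT MEFs was 2.05-fold at 2 h, and the ratios at 5 and 8 h (1.99 and 1.96) lay just under 2. On counts per library total, the log2 change at 2 h was 1.04 with a 95% interval of 0.92 to 1.17. Such intervals are Clopper-Pearson intervals given the sum of both counts, and they cover counting error only. By rank among the SR genes, Srsf2 moved from 6 in the PERK WT control to 2 at 2 and 5 h, and stood at 6 or 7 in the PERK -/- libraries.

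The difference between the genotypes in the Tg change of Srsf2 (PERK -/- minus PERK WT, log2 counts) was -0.32, -1.06, -1.06 and -1.21 at 1, 2, 5 and 8 h. At 8 h its 95% counting interval was -1.37 to -1.04. A general trend of the changes on GC content moved with this result. When that trend was removed from TPM, the changes in PERK WT MEFs were 0.12, 0.56, 0.51 and 0.41, so that none reached 2-fold, and the genotype differences were 0.13, -0.37, -0.62 and -0.60. With the trend fitted on counts, they were 0.52, 0.19, -0.35 and -0.45, so the direction at 1 and 2 h depended on this step. In NIH3T3 cells the change at 7 h was 0.87 before and 0.91 after the removal.

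Srsf11 (p54), an SR protein with a long C-terminal part, had 182 TPM in the PERK WT control and 131, 89.1, 81.3 and 79.5 TPM at 1, 2, 5 and 8 h. Untreated PERK -/- MEFs had 142 TPM, and the Tg libraries had 104, 152, 120 and 122 TPM. Untreated NIH3T3 cells had 77.2 TPM, with 79.7 TPM at 2 h and 94.9 TPM at 7 h. In TPM the 3 later PERK WT libraries were below all PERK -/- libraries, but in CPM they had 134, 124 and 125, which overlapped the 122 and 133 of the PERK -/- libraries at 1 and 5 h. In TPM the ratio to the PERK WT control was 0.488, 0.446 and 0.436 at 2, 5 and 8 h. In counts per library total it was 0.672, 0.624 and 0.628, so the fall past 2-fold was present in TPM and not in counts. The log2 change of counts at 8 h was -0.67 (95% counting interval -0.77 to -0.58).
Relative to other genes, the TPM per count of Srsf11 was 1.35 in the PERK WT control and 0.991, 0.976 and 0.953 at 2, 5 and 8 h, which by construction means a longer effective coding length assigned by RSEM. For PERK -/- libraries it was 1.11 to 1.43, and in NIH3T3 libraries 0.894 to 0.902. In the PERK WT comparisons at 2, 5 and 8 h, only 1.69%, 1.34% and 1.44% of 6107 genes shifted between the scales by more than 0.3 log2. The annotation lists 2 coding lengths for Srsf11, and which isoform the footprints came from cannot be told from gene totals.

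**Figure D3:**
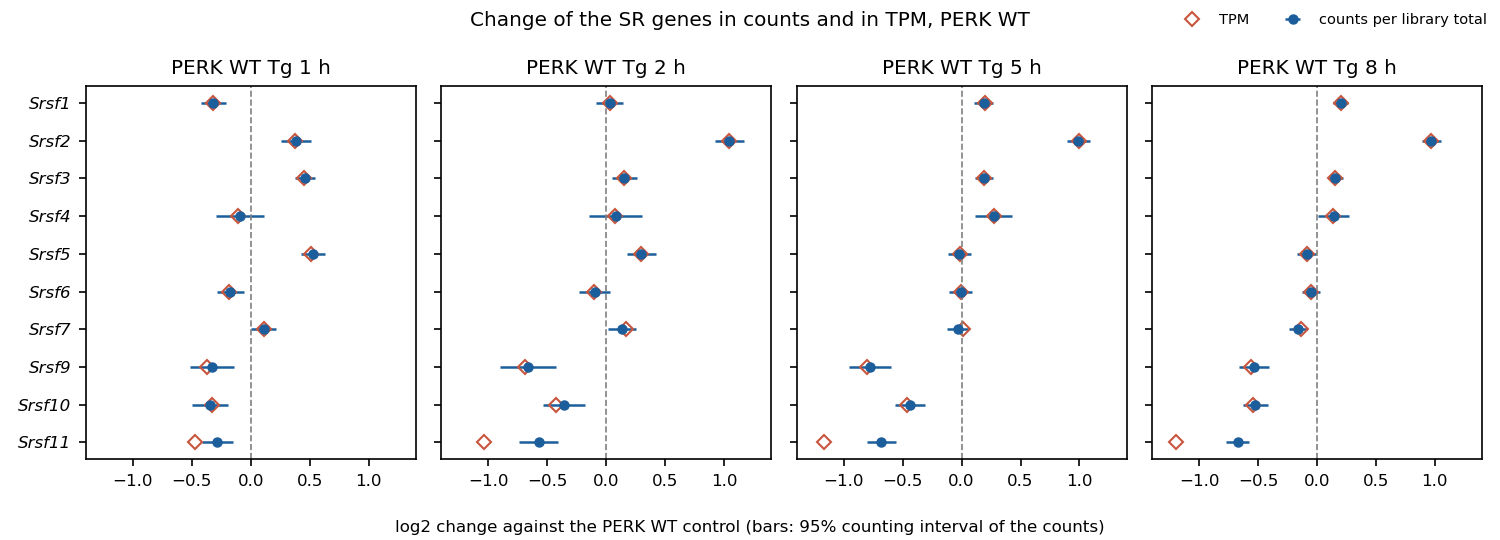
Log2 change against the PERK WT control (x axis) of each SR gene (rows) at 1, 2, 5 and 8 h of Tg, from counts per library total (blue points, bars are 95% counting intervals) and from TPM (open diamonds). The TPM values lie within the counting intervals for the other 9 genes, and Srsf11 lies at -0.57 to -0.68 in counts and at -1.03 to -1.20 in TPM from 2 h on.

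Srsf9, a short SR protein with a small RS domain, was lower in all 10 Tg libraries than in their controls. Of the 9367 genes tested in both tables, 4.15% were lower in all 10. In PERK WT MEFs it had 167 TPM in the control and 129, 103, 95.8 and 113 TPM at 1, 2, 5 and 8 h. PERK -/- MEFs had 188 TPM untreated, then 148, 141, 107 and 120 TPM. NIH3T3 cells had 192 TPM untreated, then 118 TPM at 2 h and 151 TPM at 7 h. The lowest value of each MEF line was that at 5 h. The log2 change of TPM ran from -0.34 to -0.81 and never reached 2-fold. The genotype difference of the change in counts was -0.01, 0.29, -0.06 and -0.12 at 1, 2, 5 and 8 h. Its counting interval lay above 0 at 2 h (0.02 to 0.55) and included 0 at the other times (-0.29 to 0.18 at 5 h, -0.32 to 0.08 at 8 h).

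Srsf10 (SRp38), known as a splicing repressor when dephosphorylated, differed in direction between the MEF lines. In PERK WT MEFs it had 285 TPM in the control and 227, 212, 207 and 195 TPM at 1, 2, 5 and 8 h. PERK -/- MEFs had 223 TPM untreated, then 258, 261, 223 and 242 TPM. The control of PERK WT MEFs was the highest of their libraries, and that of PERK -/- MEFs was the lowest of theirs, though by only 0.00 log2 at 5 h. In counts, the intervals of the PERK -/- changes at 5 and 8 h included 0. Untreated NIH3T3 cells had 141 TPM, with 121 TPM at 2 h and 123 TPM at 7 h. The genotype difference in counts was 0.60, 0.71, 0.44 and 0.58 at 1, 2, 5 and 8 h, with an interval of 0.41 to 0.75 at 8 h. After removal of the GC trend from TPM it was 0.18, 0.11, 0.12 and 0.33.

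Srsf7 (9G8), which also takes part in mRNA export, showed its lowest level in 1 library. It had 404 TPM in the PERK WT control and 435, 454, 407 and 368 TPM at 1, 2, 5 and 8 h. Untreated PERK -/- MEFs had 347 TPM, and the Tg libraries had 320, 363, 176 and 256 TPM. The PERK -/- library at 5 h was below the other PERK -/- libraries, with a log2 change of -0.98 in TPM and -0.99 in counts (-1.11 to -0.87). That value did not reach 2-fold in TPM, but did so with TMM factors. NIH3T3 cells had 338 TPM of Srsf7 untreated, then 419 TPM at 2 h and 434 TPM at 7 h.

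Srsf1 (SF2/ASF), Srsf3 (SRp20) and Srsf5 (SRp40), which bind exonic enhancers, stayed within a 2-fold change in every MEF library. Srsf1 had 418 TPM in the PERK WT control and 335, 427, 479 and 482 TPM at 1, 2, 5 and 8 h. Its PERK -/- levels were 382 TPM in the control and 334, 358, 290 and 324 TPM. Its genotype difference in counts was 0.15, -0.05, -0.55 and -0.45 at 1, 2, 5 and 8 h. With the GC trend removed from TPM it was 0.39, 0.27, -0.34 and -0.20.
Srsf3 had 737 TPM in the PERK WT control and 1004, 817, 842 and 820 TPM. Untreated PERK -/- MEFs had 711 TPM, followed by 754, 723, 659 and 576 TPM, so that the 5 and 8 h libraries were below the control there and above it in PERK WT MEFs. Its genotype difference in counts at 8 h was -0.47 (-0.58 to -0.36), and -0.57 with the GC trend removed from TPM.
Srsf5 was highest early. It had 281 TPM in the PERK WT control and 402, 345, 278 and 265 TPM. PERK -/- MEFs had 311 TPM untreated, followed by 344, 403, 257 and 225 TPM. Both MEF lines were above their control at 1 and 2 h, and PERK -/- MEFs were below it at 5 and 8 h. The later PERK WT changes were small, with a count interval at 5 h that included 0 (-0.12 to 0.08), and with the GC trend removed from TPM they were 0.16 at 5 h and 0.12 at 8 h, above the control.

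Srsf4 (SRp75) and Srsf6 (SRp55), which have long RS domains, also stayed within a 2-fold change in MEFs. Their largest log2 changes of counts were rises in PERK -/- MEFs. Srsf4 rose by 0.29 at 5 h (0.11 to 0.46) and Srsf6 by 0.34 at 2 h (0.25 to 0.43). Srsf4 had 46.2 to 60.02 TPM in PERK WT and 41.1 to 54.0 TPM in PERK -/- libraries. Srsf6 had 208 to 237 TPM in PERK WT and 201 to 264 TPM in PERK -/- libraries. The genotype difference of Srsf4 had a counting interval that included 0 at each time, and that of Srsf6 was largest at 2 h (0.43, 0.28 to 0.59). Of the 10 SR genes, the interval lay above 0 for 3, 5, 2 and 2 at 1, 2, 5 and 8 h, and below 0 for 4, 1, 5 and 5. Taken in TPM, the median genotype difference was 0.03, -0.01, -0.14 and -0.20 over the SR genes. Over all genes it was -0.09, -0.19, -0.04 and 0.

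**Figure D4:**
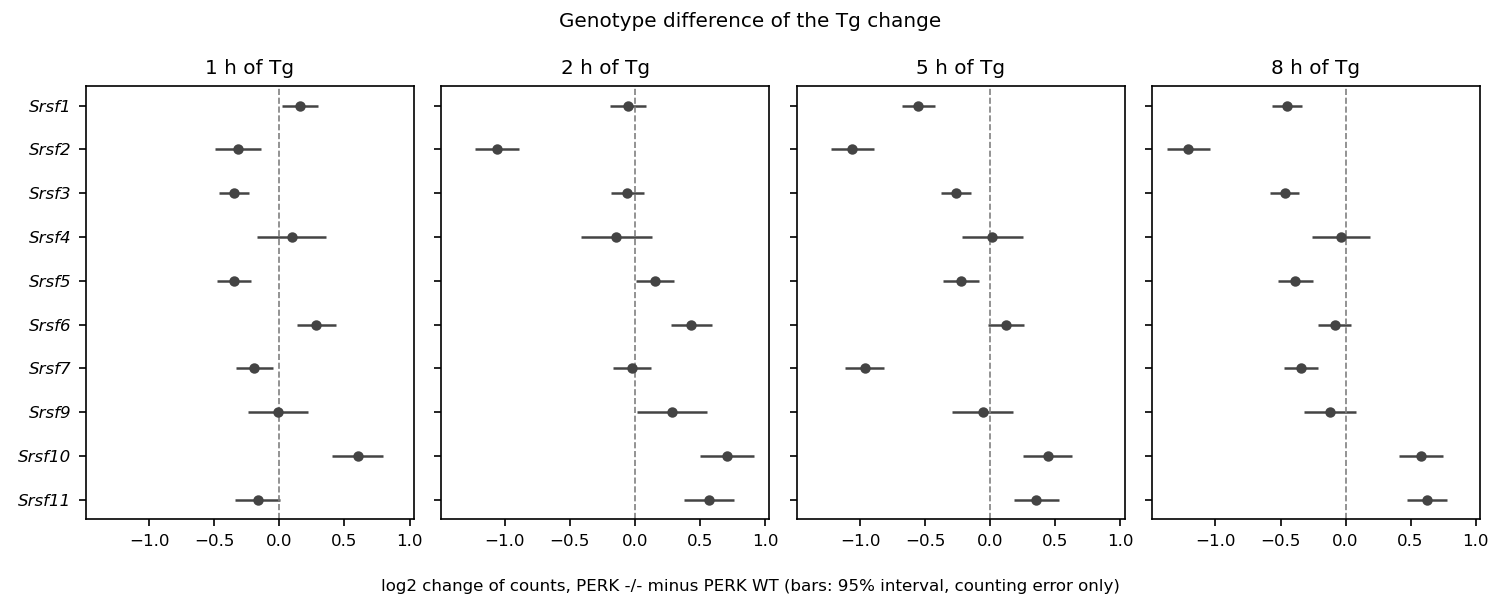
Difference between the genotypes in the Tg change (PERK -/- minus PERK WT, log2 counts, x axis) for each SR gene (rows) at 1, 2, 5 and 8 h, with bars for the 95% counting interval. Srsf2 lies at -1.06 to -1.21 from 2 h on, and Srsf10 at 0.44 to 0.71 at all 4 times.

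No SR gene changed 2-fold in PERK -/- MEFs. At 1 h, 0 rose and 0 fell, against 0.719% and 3.38% of all tested genes. At 2 h, 0 rose and 0 fell, against 0.623% and 5.78%. At 5 h, 0 rose and 0 fell, against 3.26% and 4.77%, and at 8 h, 0 rose and 0 fell, against 3.28% and 2.73%. The median log2 change of TPM over the SR genes was 0.01, 0.04, -0.18 and -0.23 at 1, 2, 5 and 8 h, and that of all genes -0.06, -0.11, 0.00 and 0.04. Of the 10 genes, 8 were below their control at 8 h, when 53.7% of all tested genes were above theirs. Before treatment, 8 of the 10 SR genes were lower in PERK -/- than in PERK WT MEFs, with a median log2 difference of -0.13 (all genes 0.08) and a range of -0.36 for Srsf10 to 0.17 for Srsf9.

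The summed share of the SR genes in all TPM was 0.3004% for the PERK WT control and 0.323%, 0.322%, 0.317% and 0.308% at 1, 2, 5 and 8 h. That of PERK -/- MEFs was 0.277% untreated and 0.274%, 0.289%, 0.230% and 0.228% with Tg. For NIH3T3 cells it was 0.239% untreated, 0.269% at 2 h and 0.295% at 7 h. Of all 13 libraries, those of PERK -/- MEFs at 5 and 8 h had the smallest shares. Srsf3 alone made up 737 of the 3004 TPM of the family in the PERK WT control.

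**Figure D5:**
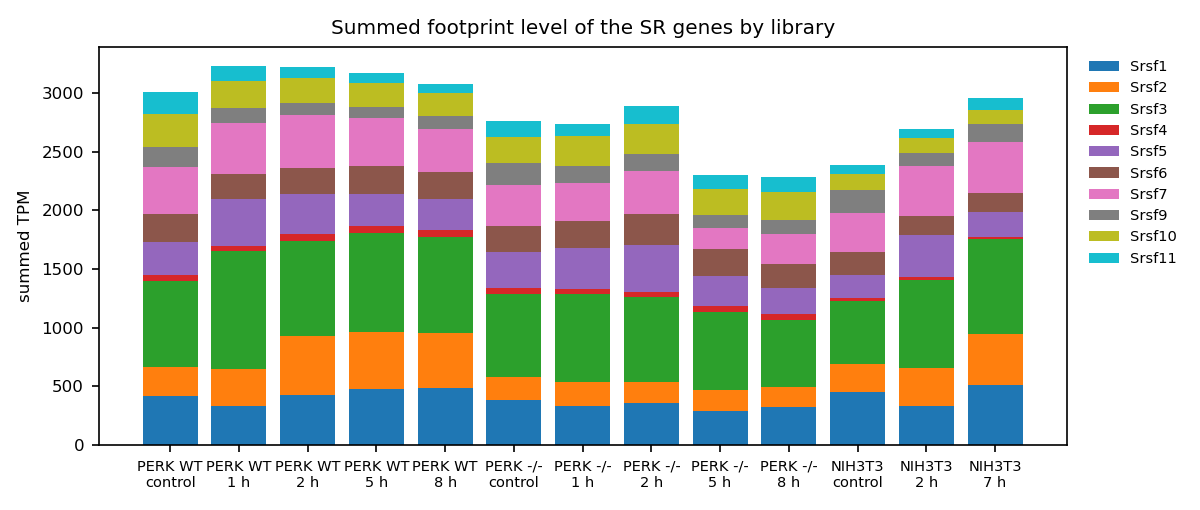
Summed TPM of the SR genes (y axis, from 0) in each of the 13 libraries (x axis), with 1 colour per gene. The bars reach 3004 to 3230 TPM in PERK WT, 2283 to 2889 TPM in PERK -/- and 2388 to 2954 TPM in NIH3T3 libraries.

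The NIH3T3 libraries differ from the MEF libraries in line, dose and time, so their values are given side by side. Differences from MEFs are given only for Srsf10 and Srsf11, under the flagged results. At 2 h, 0 SR genes rose and 0 fell at least 2-fold, against 5.76% and 3.76% of all tested genes. At 7 h, 0 rose and 0 fell, against 7.01% and 8.06%. The median log2 change of TPM was -0.08 at 2 h (all genes -0.13) and 0.16 at 7 h (all genes 0.00). Srsf5 had 191 TPM untreated, 359 TPM at 2 h and 212 TPM at 7 h. Its log2 change at 2 h was 0.91 in TPM and 1.03 in counts (0.91 to 1.15), so that it reached 2-fold in counts only. Srsf3 had 536 TPM in the control and 751 and 815 TPM, and Srsf1 had 454 TPM in the control and 329 and 509 TPM. Srsf4 was the gene furthest below its control at 7 h, with 27.1 TPM in the control and 18.0 and 16.1 TPM, which rested on 493, 82 and 152 counts. Srsf6 had 195 TPM in the control and 167 and 166 TPM.

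Neighbouring time points gave a rough sense of scale in the absence of replicates. Their differences also hold effects of time over unequal gaps, so they do not measure replicate spread. The SDs are over all genes with a mean of at least 2 TPM, including genes with fewer counts than the SR genes. Between PERK WT 5 h and 8 h the log2 changes of all genes had an SD of 0.19, and the SR genes ranged from -0.15 (Srsf7) to 0.24 (Srsf9). Between PERK WT 1 h and 2 h the SD was 0.46, with Srsf11 at -0.56 and Srsf2 at 0.67. For PERK -/- MEFs the SD was 0.30 between 1 h and 2 h. It was 0.61 between 2 h and 5 h, where Srsf7 was at -1.05, and 0.54 between 5 h and 8 h, where Srsf7 was at 0.54. NIH3T3 cells had an SD of 0.63 between 2 h and 7 h. Srsf7 thus moved most on either side of the PERK -/- library at 5 h, where the SD of all genes was also larger than between 1 h and 2 h. Whether this lies in the time or in the library was not tested.

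Across the 10 genes, the log2 change of counts in PERK WT MEFs tended to be higher where Arg-Ser pairs were denser. Pearson's r was 0.50, 0.74, 0.73 and 0.61 at 1, 2, 5 and 8 h, and Spearman's rho was 0.52, 0.67, 0.58 and 0.47. The relation was not graded throughout. Srsf7 was nearly as dense as Srsf2 (23.1 against 23.5 pairs per 100 codons), but changed by -0.16 at 8 h, against 0.97. Pearson's r for PERK -/- MEFs was 0.68, 0.51, 0.38 and 0.25, and in NIH3T3 cells 0.43 and 0.19. These are descriptions over 10 genes that share libraries and related sequences. GC content gave r of 0.03, 0.45, 0.53 and 0.66 in PERK WT MEFs, where Spearman's rho was -0.13, -0.04, 0.35 and 0.42. Srsf2 is the most GC-rich of the 10. In PERK -/- MEFs r with GC content was -0.30, -0.64, 0.08 and -0.04, and in NIH3T3 cells -0.26 and 0.14.

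The proteins that work with the SR factors were followed through 4 lists, read against the same background shares. Of all tested genes, 4.33%, 5.66%, 5.86% and 6.45% rose and 2.29%, 4.01%, 3.55% and 3.87% fell at least 2-fold in PERK WT MEFs at 1, 2, 5 and 8 h. Of the SR-related proteins, which share RS-like repeats, 23 of 24 were expressed. In PERK WT MEFs, 1 rose at 1 h (Son) and 0 later, while 0 fell at 1 h, 1 at 2 h (Luc7l3), 2 at 5 h (Srek1 and Luc7l3) and 1 at 8 h (Luc7l3). Luc7l3, a U1 snRNP-associated factor, had 187 TPM in the PERK WT control and 122, 87.6, 79.2 and 76.1 TPM, and its change at 8 h was -1.30 in TPM and -1.25 in counts (-1.35 to -1.15). Its PERK -/- levels were 165 TPM untreated and 142, 171, 136 and 122 TPM with Tg. Rsrp1, an Arg/Ser-rich protein, had 34.4 TPM in the PERK WT control and 47.1, 67.6, 64.4 and 66.6 TPM. Rsrp1 was the 1 list member that fell in PERK -/- MEFs, at 1 h only, from 43.8 to 16.4 TPM, when 3.38% of all tested genes fell. In NIH3T3 cells 0 members changed at 2 h, and 2 of 23 rose at 7 h (7.01% of all tested genes), Rsrc2 from 39.2 to 95.02 TPM and Luc7l from 44.7 to 96.6 TPM.

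Of the SR protein kinases and the import receptor, 9 of 10 were expressed. Clk2, a nuclear kinase of SR proteins, was the 1 member that rose in PERK WT MEFs at each time, with 5.02 TPM in the control and 16.2, 11.8, 10.5 and 13.1 TPM, resting on 46 to 224 counts. Its PERK -/- levels were 12.4 TPM untreated and 8.58 and 9.61 TPM at 1 and 2 h, and it was listed at 0 at 5 h and at 10.02 TPM at 8 h. The 0 at 5 h, against 127 counts in the control, may be a failed estimate, which was not tested. With values raised to 4 TPM it counted as the 1 kinase gene that fell in PERK -/- MEFs at 5 h, against 4.77% of all tested genes. In NIH3T3 cells Clk1 (57.6 TPM untreated, 144 TPM at 2 h and 87.8 TPM at 7 h) and Clk4 (18.9 TPM in the control, 41.0 and 45.4 TPM) rose at 2 h, Clk4 also at 7 h, and Clk2 fell at 7 h (12.9 to 3.96 TPM). The background in NIH3T3 cells was 5.76% up at 2 h, and 7.01% up and 8.06% down at 7 h. Srpk1, the main cytoplasmic kinase of SR proteins, had 104 TPM in the PERK WT control and 69.8, 86.4, 71.2 and 74.0 TPM. Prpf4b, a kinase of the spliceosome, had 44.4 TPM in that control and 41.9, 38.5, 33.7 and 32.1 TPM. Neither reached 2-fold. The CLK genes, Son, Srek1, Rsrc2 and Luc7l are named because they were the list members past 2-fold, after their values were seen.

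All 26 hnRNP genes and other splicing regulators, several of which oppose SR proteins at splice sites, were expressed. In PERK WT MEFs 0 rose, and 1 fell at 1 and 2 h, Pcbp2, a poly(C)-binding protein, with 546 TPM in the control and 247, 236, 291 and 289 TPM. Their median log2 change was -0.10, -0.18, -0.30 and -0.33 in PERK WT MEFs at 1, 2, 5 and 8 h, and 0.16, 0.20, -0.06 and -0.10 in PERK -/- MEFs. Hnrnpab had 1753 TPM in the PERK WT control and 1437, 1089, 986 and 948 TPM, and in PERK -/- MEFs 1763 TPM in the control and 2048, 2212, 1742 and 1491 TPM. In NIH3T3 cells 1 rose at 2 h, Hnrnpdl, from 121 to 269 TPM (5.76% of all tested genes rose), a gene named after its values were seen.
All 10 NMD factors were expressed, and Smg9, a partner of the kinase SMG1, was the 1 member that rose in PERK WT MEFs at each time. It had 11.3 TPM in the control and 26.6, 33.2, 31.6 and 28.6 TPM, while its PERK -/- levels were 11.8 to 14.2 TPM. At 1 h its ratio was 2.35 in TPM and 1.76 in counts. Upf3b, which links exon junctions to decay, had 35.2 TPM in the PERK WT control and 31.3, 20.9, 22.7 and 19.8 TPM. No NMD factor changed 2-fold in PERK -/- MEFs or NIH3T3 cells.

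Over the 10 MEF libraries, the mean log2 TPM of the SR genes ranged from 7.56 in PERK -/- MEFs at 5 h to 7.95 in the PERK WT control. Among 5983 genes with a mean of at least 16 TPM, the 5 whose log2 TPM followed this mean most closely were Cdca7 (Pearson's r 0.965), Apbb1ip (0.962), Znhit6 (0.960), Prpf31 (0.959) and Srfbp1 (0.959), over 10 libraries. Prpf31, a component of the spliceosome's U4/U6 particle, had 59.7 to 67.1 TPM in PERK WT and 45.1 to 64.1 TPM in PERK -/- libraries. All 5 were lowest in the PERK -/- libraries at 5 and 8 h. The SR mean by which they were chosen was also lowest there (7.56 and 7.57), so this follows from the choice. That mean does not stand for each member. Between members, r over these libraries ran from -0.72 (Srsf4 and Srsf9) to 0.80 (Srsf1 and Srsf2).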

How the data were processed

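Footprints of 22 to 34 nt were kept by the authors after removal of rRNA and tRNA with STAR, mapped by Bowtie2 on the mm10 RefSeq coding regions, less 30 nt at either end and without transcripts under 100 nt, and quantified with RSEM. Tool versions are not given in the sources used here. The expected counts were deposited as whole numbers per gene, unscaled between libraries. The deposited TPM values are RSEM's own scaling per library.

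Tg libraries were set against the control of the same line. A mean of 2 TPM or more was required, and TPM under 4 was raised to 4. Called means a change of at least 2-fold. Genotype differences were taken on counts per library total, with 95% intervals covering counting error. Each condition was 1 library, so no p-value was computed. No column was left unused (0).

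The members and lists were chosen with earlier results of these data known. Named genes were the 10 members, Eif2ak3, Ddit3 and Hspa5, in each list the 2 genes with the largest change in PERK WT MEFs at 8 h with at least 100 counts in both libraries, and the 5 nearest patterns. Other list members past 2-fold (Clk1, Clk2, Clk4, Son, Srek1, Rsrc2, Luc7l and Hnrnpdl) were named in addition, after their values were seen. Hspa5 had 1357 to 7253 TPM in PERK WT, 1646 to 4376 in PERK -/- and 1985 to 12210 in NIH3T3 libraries.

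The alternatives were other floors and filters, TMM factors (edgeR 4.0.16), DESeq2 1.42.0 size factors, counts per library total, thinned counts, other fold thresholds and a lowess (fraction 0.3) on the GC content of 98.2% of the expressed MEF genes. R 4.3.3 and Python 3.11.15 were used, the latter with scipy 1.17.1, statsmodels 0.14.6, numpy 2.4.6 and pandas 2.3.3. The calls and intervals were run on simulated counts with changes of known size and counting error only. The simulated counts held no spread between cultures, so this run cannot show how the calls would hold in replicates.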

Additional observations from a re-analysis of the deposited data

Results flagged for a closer look

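In 3 cases, by TPM, all Tg libraries of one line lay above their control and all of another line below it. The share of all genes that meet this rule was not computed, so the 3 cases have no background to be read against. The differences between lines were not tested, as each condition was 1 library.

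Srsf10 was lower than the control in all 4 PERK WT Tg libraries (median log2 TPM change -0.45) and higher in all 4 PERK -/- ones (median 0.17), a difference of 0.61 (0.55 in counts). The PERK -/- value at 5 h was 0.00, and after removal of the GC trend the PERK -/- values at 2 and 5 h were -0.05 and -0.05, so the opposite direction did not hold there. Srsf10 was also lower in both NIH3T3 Tg libraries (median -0.20), a difference from PERK -/- MEFs of -0.37 (-0.30 in counts). The counting interval of the NIH3T3 change at 2 h included 0 (-0.27 to 0.15). So did those of the PERK -/- changes at 5 h (-0.13 to 0.14) and 8 h (-0.08 to 0.20).

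Srsf11 was lower in all 4 PERK WT Tg libraries (median -1.10) and higher in both NIH3T3 ones (median 0.17), a difference of 1.27 in TPM. In counts per library total the medians were -0.62 and 0.22, a difference of 0.84, and the counting interval of the NIH3T3 change at 2 h included 0 (-0.02 to 0.32). The lines differ here in dose and time, and the NIH3T3 control (77.2 TPM) already had the level of the treated PERK WT libraries.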

How the results depend on the processing

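No paired analysis was possible because each condition was 1 library, and for the same reason no replicate could be left out. The medians of the SR genes stayed within the spread of the 10 members under all 9 alternatives in all 10 comparisons. A median of the same members can hardly leave that range, so this says little about stability. At PERK WT 2 h the median was 0.05, but -0.03 with TMM factors, -0.01 with DESeq2 size factors and -0.10 without the GC trend. At 5 h it was 0.00, but -0.10 with TMM factors or DESeq2 size factors. The counts of SR genes past 2-fold were small and moved by 1 gene. At PERK WT 2 h the count up was 0 in place of 1 with TMM factors, with DESeq2 size factors, after removal of the GC trend and at a 3-fold threshold. The count down at PERK WT 2, 5 and 8 h was 0 in place of 1 with TMM factors, DESeq2 size factors, counts per library total and thinned counts, since Srsf11 passed in TPM only, and also at a 3-fold threshold. At 5 h it was 2 after removal of the GC trend (Srsf9 and Srsf11). At PERK -/- 5 h the count down was 1 in place of 0 (Srsf7) with TMM factors, DESeq2 size factors, thinned counts and removal of the GC trend. At NIH3T3 2 h the count up was 1 in place of 0 (Srsf5) with TMM factors, DESeq2 size factors and counts per library total.

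At a 1.5-fold threshold, Srsf2 was up in PERK WT MEFs at 2, 5 and 8 h. In the same MEFs 2 genes were down at 2 and 5 h (Srsf9 and Srsf11) and 1 at 8 h (Srsf11). In PERK -/- MEFs 2 were down at 5 h and 1 at 8 h. In NIH3T3 cells 1 was up and 2 down at 2 h, and 2 were up and 1 down at 7 h. The share of all genes past 1.5-fold was not computed, so these counts have no background to be read against.

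The genotype difference of Srsf2 turned to 0.13 at 1 h after removal of the GC trend from TPM, and to 0.52 at 1 h and 0.19 at 2 h with the trend fitted on counts, an alternative chosen after seeing the data. That of Srsf5 at 2 h turned to -0.25 in both fits, and that of Srsf7 at 1 h to 0.0023 with TMM factors. These are the turns among differences whose counting interval excluded 0. Of the 40 genotype differences, another 30 moved beyond the arm of their counting interval when the GC trend was removed from TPM, 29 with the trend fitted on counts and 15 with TMM factors. The cause was not tested. Depth limits Srsf4 most, with 82 counts in NIH3T3 cells at 2 h. Changing the scaling moved the median of all genes by at most 0.14 log2.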
